A study of Mus musculus with 2 samples.

Results

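Skeletal muscle genes are among the best known self antigens that the thymus displays, and 10 of them were followed here in medullary thymic epithelial cells (mTECs): Chrna1, Musk, Ttn, Ryr1, Acta1, Actc1, Myl1, Ckm, Myog and Klhl41. They were chosen by name as structural muscle genes, a muscle transcription factor and targets of autoantibodies in myasthenia gravis. All 10 symbols had a single row among the 55487 genes counted. Levels were compared between muscle-like cells, Aire-expressing cells and the other classes of mTEC, and between mice given spermidine and mice given phosphate-buffered saline (PBS).

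The cells came from the thymus of wild-type (WT) female C57BL/6J mice aged 4 weeks. Spermidine, a polyamine, was injected intraperitoneally at 15 mg/kg in PBS each day for 7 days, and the control mice received PBS alone. After depletion of CD45+ cells, mTEChi and post-Aire mTEClo cells were sorted, marked with hashtag antibodies and run together in 1 library with 10x 3' v3 reagents. Tags HT4 and HT5 marked PBS replicate 1 and PBS replicate 2, while HT2 marked the first and HT3 the second spermidine replicate. Whether the replicates are different animals is not stated in the labels. The p-values therefore describe spread among 4 hashed samples, which may be technical.

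The muscle acetylcholine receptor sits at the endplate, where the nerve meets the fibre, and Chrna1 encodes its alpha subunit, the main target of antibodies in myasthenia gravis. Musk, a receptor kinase that gathers these receptors at the endplate, as well as titin and the ryanodine receptor are further targets. In the thymus such genes can be transcribed through Aire, a regulator that switches on tissue antigens in scattered single cells, and they are also made by post-Aire mTECs that take on a muscle programme under factors such as myogenin.

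The 250 bases before the start of 6 of the genes are printed to show the DNA upstream of the endplate targets Chrna1 and Musk, of titin and of 3 genes with most of their UMIs in muscle-like cells. They came from RefSeq on GRCm38.p6, which had a promoter for all 10 genes. Chrna1 lay at chr2:73580339-73580588 (minus strand), Musk at chr4:58285712-58285961 (plus), Ttn at chr2:76982548-76982797 (minus), Acta1 at chr8:123894776-123895025 (minus), Myog at chr1:134289754-134290003 (plus) and Klhl41 at chr2:69669870-69670119 (plus). Capitals mark the E-box CANNTG, which myogenin and related factors can bind, TATAAA, the CArG box of serum response factor and the MEF2 site YTAWWWWTAR. In the last form Y is C or T, W is A or T and R is A or G.
Chrna1: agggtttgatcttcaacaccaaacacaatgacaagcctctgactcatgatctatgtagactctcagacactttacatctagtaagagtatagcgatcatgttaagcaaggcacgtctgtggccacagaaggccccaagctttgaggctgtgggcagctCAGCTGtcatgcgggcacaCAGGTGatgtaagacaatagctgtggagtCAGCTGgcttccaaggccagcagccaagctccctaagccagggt
Musk: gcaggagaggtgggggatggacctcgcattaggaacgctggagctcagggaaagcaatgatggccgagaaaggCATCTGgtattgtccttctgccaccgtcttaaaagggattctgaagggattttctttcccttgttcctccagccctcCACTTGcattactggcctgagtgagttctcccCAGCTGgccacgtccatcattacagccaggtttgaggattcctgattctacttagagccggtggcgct
Ttn: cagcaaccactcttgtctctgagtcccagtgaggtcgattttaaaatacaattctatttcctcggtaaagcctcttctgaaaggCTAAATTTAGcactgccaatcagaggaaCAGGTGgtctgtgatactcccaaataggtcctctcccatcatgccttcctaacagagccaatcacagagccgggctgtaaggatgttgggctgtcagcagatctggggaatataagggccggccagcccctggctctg
Acta1: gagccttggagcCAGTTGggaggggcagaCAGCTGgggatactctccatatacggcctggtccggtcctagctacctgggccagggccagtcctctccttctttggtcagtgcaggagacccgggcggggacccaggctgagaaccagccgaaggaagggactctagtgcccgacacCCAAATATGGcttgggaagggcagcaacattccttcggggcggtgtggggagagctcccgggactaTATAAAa
Myog: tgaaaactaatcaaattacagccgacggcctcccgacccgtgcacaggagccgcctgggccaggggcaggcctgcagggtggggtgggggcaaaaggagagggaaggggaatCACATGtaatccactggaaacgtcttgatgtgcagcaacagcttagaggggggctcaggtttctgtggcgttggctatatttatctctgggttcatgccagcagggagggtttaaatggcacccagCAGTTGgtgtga
Klhl41: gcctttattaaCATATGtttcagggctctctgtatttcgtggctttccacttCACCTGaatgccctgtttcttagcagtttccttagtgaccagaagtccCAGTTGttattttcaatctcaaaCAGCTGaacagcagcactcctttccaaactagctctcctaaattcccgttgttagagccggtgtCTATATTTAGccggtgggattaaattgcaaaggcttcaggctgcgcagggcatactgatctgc
All motifs were searched on both strands. The E-box CANNTG was found 3 times each before Chrna1 and Musk, 4 times before Klhl41, 2 times each before Acta1 and Myog and 1 time each before Ttn, Myl1 and Ckm, and had no match before Ryr1 and Actc1. Of 32851 promoters of the same length, 66.2% held it. Its form CAGCTG, a subset of CANNTG, was in 13% of promoters and in those of Chrna1 (2 matches), Musk, Acta1, Myl1, Ckm and Klhl41. The form CACCTG, also a subset, was in 17.2% of promoters and in those of Chrna1, Ttn and Klhl41. The CArG box, found in 1.47% of promoters, lay before Acta1 and Actc1. A MEF2 site of the form YTAWWWWTAR, found in 2.92%, lay before Ttn and Klhl41, and TATAAA, found in 12.4%, before Acta1 and Myl1. Before Myog the stretch ctatatttat differs from the MEF2 form in its last base only. It was not counted and stays in lower case, so a promoter without a match here can still hold a MEF2 site. A run of 5 alternating CA units, a kind of repeat that can form Z-DNA, was in 1.43% of promoters and in 0 of these 10. A match is a stretch of letters and does not show binding.

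Of 12139 barcodes, 8534 passed the filters on unique molecular identifiers (UMIs, single counted RNA molecules), genes and mitochondrial share, and 4705 of these were assigned to 1 of the 4 samples. The samples held 998 to 1362 cells, 17855884 to 25548781 UMIs and a median of 15757 to 17401 UMIs per cell. Cells were clustered without the 10 genes, since these would have chosen the class they are compared in. In a further assignment with 6 hashtags, 2 of them with no sample in the labels, 880 of the 4705 cells were called doublets. Further cells of the 4705 were called negative or were given to the hashtags with no sample. Values with 6 hashtags are given where the direction or the call of a member turned on those cells. Levels are given as CPM, the UMIs of a gene in every 1000000 UMIs of all genes in the same cells. UMIs are counted at the 3' end, so levels are compared between classes and samples and not between genes.

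The label muscle-like was given from 18 markers that are not among the 10 genes. Their levels describe that choice and are no separate check of it. In the cluster of 70 such cells, 40 of them assigned, 9 of the 18 were more than 2-fold higher than in other cells. Its leading genes were Acta1, Myl1, Myog, Meg3, Actc1, 5430431A17Rik, Ckm, Rbm24, Cdkn1c and Klhl41. The 18 markers summed to 1309 CPM there (15 with a UMI), against 408 CPM in Aire-stage and 367 CPM in ciliated-like cells. Des, the muscle intermediate filament, stood at 122 ± 21.6 CPM (SD, n = 4 samples) and Mylpf, a fast muscle light chain, at 646 ± 592. The Mylpf level rests on few cells: single cells held 218, 159, 100 and 89 of its UMIs, and each other cell had 3 or fewer. Myod1, which starts the muscle programme, had 0 UMIs in the 40 cells, and Aire was at 8.34 ± 5.86 CPM against 733 ± 53.2 in the Aire-stage class. Of the lists for other cell types, fibroblast markers summed to 0.939 CPM (1 of 6 genes with a UMI), endothelial markers to 2.82 CPM (1 of 5) and thymocyte markers to 3.75 CPM (4 of 10), whereas myeloid markers summed to 241 CPM (3 of 9) and markers of smooth muscle or pericytes summed to 56.3 CPM (6 of 6). Tuft-like markers summed to 2619 CPM there, against 14414 CPM in tuft-like cells. In each of the remaining classes they summed to 1084 CPM or less, so muscle-like cells were second for these markers.

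The share of UMIs that lay in muscle-like cells ran from most of a gene to almost none. Muscle-like cells held 81.3% of the UMIs of Acta1, 76.7% of Myl1, 70.1% of Myog and 69.4% of Actc1. They held 56.9% of Klhl41, 40.3% of Ckm and 37.3% of Ryr1. They held 7.64% of the UMIs of Ttn, 6.05% of Chrna1 and 1.82% of Musk. The Aire-stage class held 44.4% of the UMIs of Chrna1 and 50.9% of Musk, transit-amplifying-like cells, a dividing stage with Aire, held 46.4% of Ttn, and tuft-like cells held 36.8% of Chrna1 and 19.6% of Myog. Taking the 10 genes as a sum, 46.4% of their UMIs lay in 40 of 4705 cells.

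**Figure D1:**
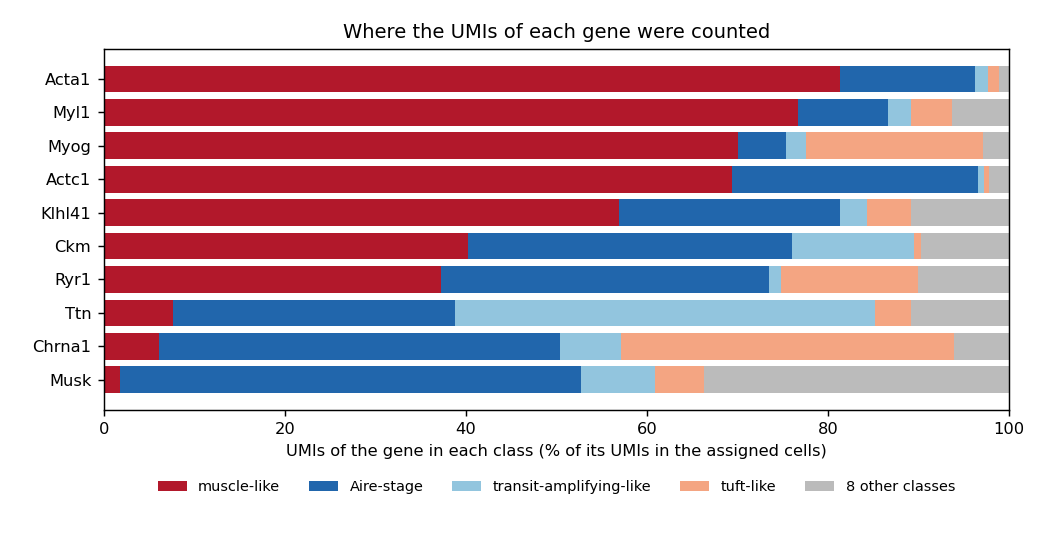
Share of the UMIs of each gene (horizontal axis, % of the UMIs in the assigned cells) counted in muscle-like, Aire-stage, transit-amplifying-like, tuft-like and 8 other classes. Acta1 had 81.3% of its UMIs in muscle-like cells and Musk 1.82%.

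At the endplate, Chrna1 (chr2:73563215-73580338, minus strand, GRCm38) was spread over 3 classes. Its level was 23.9 ± 12.9 CPM (SD, n = 4) in muscle-like, 7.93 ± 4.14 in tuft-like and 7.04 ± 2.69 in Aire-stage cells, and the ranges over samples of neighbours in this order overlapped. In the remaining classes its mean was 3.01 CPM or lower. Myeloid- and thymocyte-like cells, which came through the sort and serve as a background, had 0 Chrna1 UMIs, while 3 counts there would have been 1.98 and 2.79 CPM.

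Chrna1 was seen in more of the muscle-like than of the other cells, at unequal depth. It had a UMI in 13 of 40 muscle-like cells (32.5%, median 26890.5 UMIs per cell), 96 of 1280 tuft-like cells (7.50%, median 12676.0) and 59 of 1281 Aire-stage cells (4.61%, median 20525.0). It had none in 81 myeloid-like cells (median 17196.0) and 128 thymocyte-like cells (median 6347.0). With each cell thinned to 5000 UMIs the Chrna1 shares were 3.77% of tuft-like and 2.26% of Aire-stage cells. For muscle-like cells the thinned share was 2.50%, which is 1 of 40 cells and no basis for an order.

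Chrna1 differed by treatment in opposite directions in the 2 classes that held most of it. In Aire-stage cells it stood at 5.47 and 4.11 CPM in PBS replicates 1 and 2 and at 9.81 and 8.77 CPM in spermidine replicates 1 and 2. In tuft-like cells the same samples gave 12.2 and 10.7 CPM with PBS and 4.74 and 4.05 CPM with spermidine. Both spermidine values were above both PBS values in the first class and below both in the second. The fitted log2 fold change was 0.95 ± 0.30 (SE; adjusted p = 0.706, edgeR) in Aire-stage cells and -1.36 ± 0.27 (adjusted p = 0.117, edgeR) in tuft-like cells, so neither passed the threshold of 0.05. The tuft-like comparison was added after its values were seen, as was the test of the difference between the changes, tuft-like minus Aire-stage: -2.33 ± 0.43 (SE; adjusted p = 0.379, edgeR). In that test 6.45% of 18742 genes had an unadjusted p under 0.05 and 0.0107% passed after adjustment. The tuft-like change ran from -1.49 to -1.26 with each replicate left out in turn and from -1.38 to -1.30 under the other settings.

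Within these classes the Chrna1 difference was not uniform. In Aire-stage cluster 3, the deepest of its 3 clusters (medians of 23437.0 to 25508.0 UMIs per cell over samples), Chrna1 was at 9.66 and 7.33 CPM with PBS and at 12.5 and 19.0 CPM with spermidine. In Aire-stage cluster 4 it was at 4.06 and 2.52 CPM with PBS and at 8.39 and 0.397 CPM with spermidine, and 19 of the 24 UMIs behind the third value came from 1 cell. Tuft-like cluster 2 had Chrna1 at 17.7 and 16.1 CPM with PBS and at 13.2 and 5.0 CPM with spermidine. Of these 3 clusters, the groups overlapped in Aire-stage cluster 4 and not in the other 2. Chrna1 is not given here for Aire-stage cluster 6 or for tuft-like clusters 0, 1 and 9. The mix of clusters also moved with treatment: cluster 3, where Chrna1 was higher, held 83 of 260 Aire-stage cells in PBS replicate 1, 82 of 262 in PBS replicate 2, 210 of 441 in spermidine replicate 1 and 118 of 318 in spermidine replicate 2. The part of this mix in the Aire-stage value was not tested, nor was the part of the tuft-like mix in the tuft-like value.

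With all kept cells summed the opposite values met, and Chrna1 stood at 5.95 and 4.87 CPM with PBS and at 5.32 and 4.63 CPM with spermidine, with a log2 fold change of -0.08 ± 0.20 (adjusted p = 0.869, edgeR). This value was 0.05 without PBS replicate 1, 0.01 without spermidine replicate 2 and 0.05 with 6 hashtags. In muscle-like cells Chrna1 had 14 and 7 UMIs with PBS and 2 and 4 with spermidine, too few for the fit. These were 40.1 and 20.7 CPM with PBS and 8.96 and 25.9 CPM with spermidine, and the groups overlapped.

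Musk (chr4:58285960-58374303, plus strand) was the gene least tied to muscle-like cells. It had 2 UMIs there, both in 1 cell of PBS replicate 2. The highest mean Musk level was in ciliated-like cells at 6.44 ± 1.94 CPM (SD, n = 4), which rests on 13 UMIs, followed by immature mTEC-like cells at 3.35 ± 1.89 and Aire-stage cells at 2.25 ± 0.74, with ranges that overlapped from each to the next. Musk had a UMI in 50 of 1281 Aire-stage cells (3.90%), in 1 of 81 myeloid-like cells (1.23%) and in 0 of 128 thymocyte-like cells.

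With treatment, Musk in Aire-stage cells was at 3.32 and 2.15 CPM with PBS and at 1.77 and 1.75 CPM with spermidine. The PBS values were both higher, and the log2 fold change was -0.63 ± 0.48 (adjusted p = 0.881, edgeR). In all kept cells Musk was at 1.54 and 1.18 CPM with PBS and at 1.21 and 1.21 CPM with spermidine, with overlapping groups and a log2 fold change of -0.13 ± 0.34 (adjusted p = 0.878, edgeR), which turned to 0.06 without PBS replicate 1.

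The rest of the endplate list, 14 genes in all, was present in both classes but in different measure. All 14 had UMIs in muscle-like cells, and 8 of the 14 had a higher pooled level there than in cells outside the class. The other subunits of the fetal receptor were among these: Chrnb1 stood at 30.2 ± 10.2 CPM in muscle-like against 5.26 ± 0.68 in Aire-stage cells, Chrnd at 17.4 ± 7.34 against 2.88 ± 1.02 and Chrng at 18.4 ± 11 against 4.68 ± 0.47 (SD, n = 4 samples). Chrnd and Chrng were among the markers that named the muscle-like class, so their higher level there is no separate result. Chrne, the subunit that replaces Chrng in the adult receptor, was lower in muscle-like cells at 2.17 ± 2.75 CPM than in Aire-stage cells at 18.2 ± 4.49. Rapsn, which anchors the receptor, was at 16.8 ± 5.21 and 2.07 ± 1.05 CPM, and Dok7, which activates Musk, at 11.6 ± 7.28 and 1.21 ± 1.29 CPM. Ache, the esterase that splits acetylcholine, was at 25.7 ± 17.1 CPM in muscle-like and 120.3 ± 4.95 CPM in Aire-stage cells, and its anchor Colq at 67.7 ± 45.1 and 104 ± 12.3 CPM. Agrn, Lrp4, Utrn and Col13a1 were at 11.2 ± 4.82, 31.3 ± 14.8, 394 ± 139 and 2.87 ± 5.73 CPM in muscle-like cells and at 17.4 ± 2.11, 30.7 ± 4.47, 95.6 ± 6.03 and 9.40 ± 2.83 CPM in Aire-stage cells.

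Genes whose level over classes and samples was most like that of Chrna1 were picked by Pearson correlation of log2(CPM + 1) over 48 sums, 12 classes in 4 samples, among 21688 genes. They were Smyd1 (r = 0.754), a methyltransferase of muscle, Rgs8 (0.752), Mymx (0.744), a fusion peptide of myoblasts, Cdh13 (0.732) and Vwc2 (0.729). The sums share the same 4 samples and differ in depth, so these values are descriptions.

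**Figure D2:**
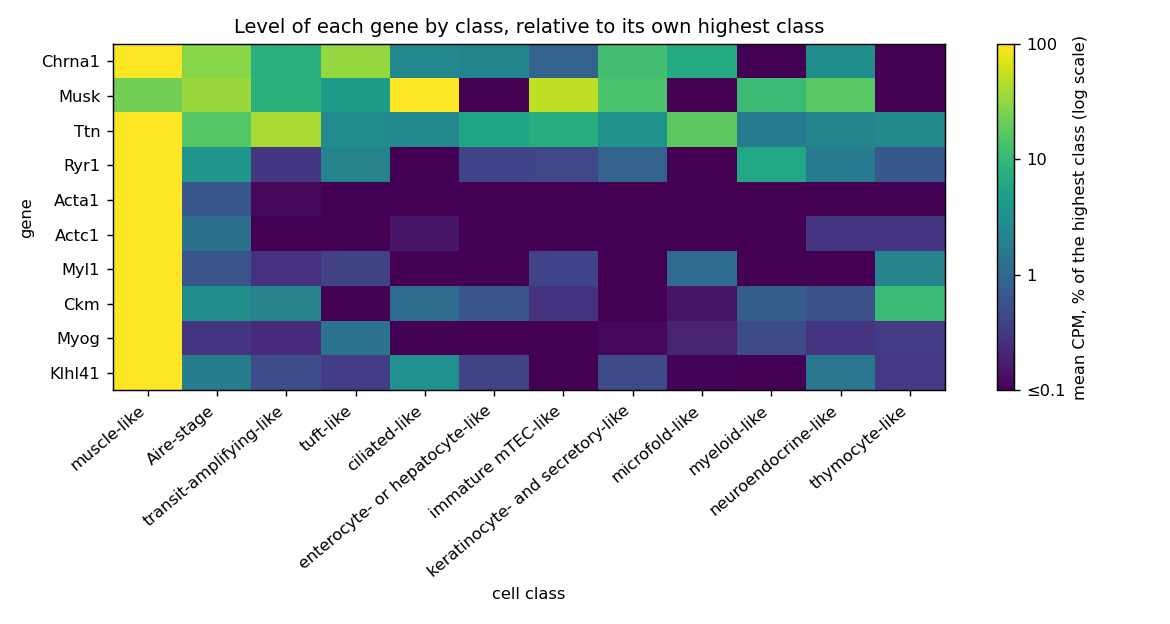
Mean CPM of each gene (rows) in each class (columns) as a percentage of the same gene's highest class, on a log colour scale. Muscle-like cells were the highest class for 9 genes, and ciliated-like cells for Musk at 6.44 CPM.

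Of the sarcomere genes, Ttn (chr2:76703980-76982547, minus strand), whose giant protein spans the sarcomere as a spring, was the one with a broad level in dividing cells. Its mean was 428 ± 233 CPM (SD, n = 4) in muscle-like, 179 ± 38.9 in transit-amplifying-like, 75.9 ± 19.9 in microfold-like and 68.6 ± 9.47 in Aire-stage cells. Ranges overlapped between muscle-like and transit-amplifying-like cells and between microfold-like and Aire-stage cells, but not between these 2 pairs. Ttn had a UMI in 312 of 511 transit-amplifying-like cells (61.1%, median 27581.0 UMIs per cell), 448 of 1281 Aire-stage cells (35.0%) and 7 of 128 thymocyte-like cells (5.47%). At 5000 UMIs per cell the Ttn shares were 40.2%, 18.2% and 2.44%, and 0 in myeloid-like cells.

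Ttn was higher with spermidine over all kept cells, at 49.4 and 49.3 CPM with PBS and at 86.8 and 80.8 CPM with spermidine. The groups did not overlap, and the log2 fold change was 0.80 ± 0.07 (SE; adjusted p = 0.113, edgeR). It ran from 0.75 to 0.84 with each replicate left out in turn. Outside muscle-like cells the values were 43.3 and 46.8 CPM against 81.1 and 78.6 CPM. There the log2 fold change was 0.86 ± 0.08 (adjusted p = 0.119, edgeR), or 0.79 to 0.92 with each replicate left out.

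The Ttn difference varied between classes. In transit-amplifying-like cells, a comparison added after the values were seen, Ttn was at 150.5 and 142 CPM with PBS and at 218 and 207 CPM with spermidine, with a log2 fold change of 0.54 ± 0.08 (SE; adjusted p = 0.131, edgeR). In Aire-stage cells it was at 74.2 and 56.9 CPM with PBS and at 65.1 and 78.0 CPM with spermidine, with overlapping groups and a log2 fold change of 0.12 ± 0.17 (adjusted p = 0.937, edgeR), which was -0.05 without PBS replicate 2 and -0.00 without spermidine replicate 2. In muscle-like cells it was at 456 and 183 CPM with PBS and at 734 and 337 CPM with spermidine, overlapping, with a log2 fold change of 0.76 ± 0.53 (adjusted p = 0.999, edgeR). That value was 1.26 without spermidine replicate 2, 0.03 without spermidine replicate 1, 0.24 without PBS replicate 2 and 1.52 without PBS replicate 1. Lower levels were seen in enterocyte- or hepatocyte-like cells, at 7.67 and 23.9 CPM with PBS and at 16 and 52.0 CPM with spermidine, and in neuroendocrine-like cells, at 9.70 and 2.79 CPM with PBS and at 18.4 and 8.72 CPM with spermidine, where the groups overlapped and no fit was made. The percentage of cells in the transit-amplifying-like class, which held 46.4% of all Ttn UMIs, moved with the level: 6.92% and 9.48% of cells with PBS and 13.7% and 13.7% with spermidine. The part of these shares in the difference over all kept cells was not tested.

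Acta1, the skeletal muscle actin (chr8:123891769-123894751, minus strand), was almost confined to muscle-like cells, at 1683 ± 908 CPM (SD, n = 4) against 10.9 ± 13.8 in the next class, Aire-stage, and 0 UMIs in myeloid- and thymocyte-like cells. Within the muscle-like class it was at 1307 and 614 CPM with PBS and at 2673 and 2139 CPM with spermidine. Both spermidine values were higher, with a log2 fold change of 1.32 ± 0.36 (SE; adjusted p = 0.751, edgeR). The change ran from 0.87 to 1.92 with each replicate left out in turn. These values come from few cells: Acta1 had a UMI in 2, 2, 5 and 3 cells of the 4 samples.

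In Aire-stage cells Acta1 was at 3.32 and 1.17 CPM with PBS and at 7.83 and 31.1 CPM with spermidine, a log2 fold change of 3.09 ± 0.87 (adjusted p = 0.681, edgeR). Of the 293 Acta1 UMIs in that class, 157 (53.6%) came from 1 cell of spermidine replicate 2. With 6 hashtags the change was -0.53 in Aire-stage cells, and outside muscle-like cells it was -0.04 in place of 2.71 ± 0.66.

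Actc1, the actin of heart and of developing skeletal muscle (chr2:114047282-114053548, minus strand), was at 1161 ± 890 CPM in muscle-like cells and at 14.7 ± 2.44 in Aire-stage cells, and the ranges did not overlap. In muscle-like cells it was at 318 and 475 CPM with PBS and at 2037 and 1815 CPM with spermidine. Both spermidine values were several times both PBS values, and this was the member with the smallest p in that class (log2 fold change 2.26 ± 0.29 SE, adjusted p = 0.249, edgeR). The Actc1 UMIs came from 1 and 6 cells with PBS and from 4 and 2 cells with spermidine. With each replicate left out in turn, the change of Actc1 ran from 1.97 to 2.58. With the replicate number as a block it was 2.28 (adjusted p = 0.0226, edgeR). With 6 hashtags, which left 8 in place of 13 muscle-like cells in PBS replicate 2, it was 2.68 (adjusted p = 0.0316, edgeR).

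Actc1 over all kept cells was at 8.65 and 12.7 CPM with PBS and at 25.4 and 20.7 CPM with spermidine, with no overlap. The log2 fold change was 1.16 ± 0.22 SE (adjusted p = 0.125, edgeR), or 0.88 to 1.45 with each replicate left out. In Aire-stage cells Actc1 was at 15.8 and 11.9 CPM with PBS and at 17.5 and 13.7 CPM with spermidine, with overlapping groups. There the log2 fold change was 0.17 ± 0.25 (adjusted p = 0.941, edgeR), -0.01 without PBS replicate 2 and -0.02 without spermidine replicate 1. Aire-stage cluster 3 held Actc1 at 28.5 to 33.8 CPM in the 4 samples, and cluster 6 had 0 Actc1 UMIs in all of them.

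Myl1, an alkali light chain of fast skeletal myosin (chr1:66924295-66945404, minus strand), had the widest spread between samples in muscle-like cells. It was at 3093 and 366 CPM with PBS and at 1254 and 1160 CPM with spermidine, and a single cell of PBS replicate 1 held 765 of the 1079 UMIs there. The groups overlapped, and the log2 fold change was -0.52 ± 0.78 (adjusted p = 0.999, edgeR) and 1.67 without PBS replicate 1. In Aire-stage cells Myl1 was at 21.1 and 6.65 CPM with PBS and at 5.43 and 3.51 CPM with spermidine, lower in both spermidine samples, with a log2 fold change of -1.62 ± 0.62 (SE; adjusted p = 0.763, edgeR). For all kept cells Myl1 was at 53.8 and 14.9 CPM with PBS and at 16.8 and 11.9 CPM with spermidine. The change was -1.21 ± 0.58 (adjusted p = 0.346, edgeR), or -1.86 to -0.03 with each replicate left out. In thymocyte-like cells 37 of 38 Myl1 UMIs came from 1 cell and so did all 59 Ckm UMIs, both in PBS replicate 1, so the thymocyte-like means of these genes rest on single cells. Among the 128 thymocyte-like cells, 1 held 5 of the 10 members, and 4 of them after thinning to 5000 UMIs. It was kept in the thymocyte-like background, and what kind of cell it is was not tested.

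Among the 44 sarcomere genes, 31 had UMIs in muscle-like cells, 22 were higher there than outside and 13 had none, while all 44 had UMIs in Aire-stage cells. Neb, a ruler of the thin filament, was at 285 ± 198 CPM in muscle-like and 57.8 ± 16.5 in Aire-stage cells (SD, n = 4 samples). Several myosin genes showed the reverse: Myh4 had 0 UMIs in muscle-like cells, where 3 counts would have been 2.82 CPM, and stood at 33.3 ± 7.35 CPM in Aire-stage cells. Myh8 was at 0 and 14 ± 6.43 CPM, Myh3 at 1.84 ± 2.22 and 23.9 ± 11 CPM and Myl2 at 0.74 ± 1.48 and 20.2 ± 7.16 CPM. These were chosen after their values were seen, and classes were not tested against each other. Neb and Myh3 were also among the markers that named the muscle-like class.

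For excitation-contraction coupling, Ryr1, the calcium release channel of the sarcoplasmic reticulum (chr7:29003344-29125179, minus strand), was at 144 ± 39.8 CPM (SD, n = 4) in muscle-like cells and had a UMI in 22 of 40 of them (55.0%). The next classes, myeloid-like at 9.14 ± 5.33 CPM and Aire-stage at 5.44 ± 3.13 CPM, overlapped each other and not the muscle-like range. At 5000 UMIs per cell Ryr1 had a UMI in 5.88% of myeloid-like and 1.13% of Aire-stage cells, so its Aire-stage share lay below that of a class outside the epithelium. With treatment Ryr1 was at 152 and 91.5 CPM with PBS and at 143 and 188 CPM with spermidine in muscle-like cells, with overlapping groups and a log2 fold change of 0.41 ± 0.38 (adjusted p = 0.999, edgeR). In Aire-stage cells it was at 3.12 and 4.50 CPM with PBS and at 4.07 and 10.05 CPM with spermidine, and 41 of the 63 UMIs behind the last value came from 1 cell. Of the 19 genes of this list 16 had UMIs in muscle-like cells and 12 were higher there than outside. Sln, a regulator of the calcium pump, was at 471 ± 343 CPM in muscle-like and 10.9 ± 10.2 in Aire-stage cells, whereas Cacna1s, the voltage sensor that opens Ryr1, was at 1.84 ± 2.22 and 54.3 ± 5.87 CPM.

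Ckm, the muscle creatine kinase that buffers ATP (chr7:19404776-19422841, plus strand), was at 447 ± 352 CPM in muscle-like and 14.1 ± 9.34 in Aire-stage cells. In muscle-like cells it was at 347 and 97.4 CPM with PBS and at 936 and 408 CPM with spermidine, both higher, with a log2 fold change of 1.61 ± 0.64 (SE; adjusted p = 0.905, edgeR). This change ran from 0.83 to 2.75 with each replicate left out in turn. In Aire-stage cells Ckm was at 6.84 and 8.60 CPM with PBS and at 13.4 and 27.4 CPM with spermidine, again both higher (1.39 ± 0.41 SE, adjusted p = 0.691, edgeR). Of the Ckm UMIs of spermidine replicates 1 and 2 there, 34 of 128 and 32 of 172 were in the top cell. Aire-stage cluster 3 had Ckm at 9.66 and 11.5 CPM with PBS and at 20.2 and 47.9 CPM with spermidine. Ckm over all kept cells was at 11 and 6.50 CPM with PBS and at 17 and 13.8 CPM with spermidine, with a log2 fold change of 0.85 ± 0.26 (SE; adjusted p = 0.202, edgeR). At 5000 UMIs per cell Ckm had a UMI in 3.39% of Aire-stage, 1.22% of thymocyte-like and 1.47% of myeloid-like cells.

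Myog, the basic helix-loop-helix factor that drives terminal muscle differentiation (chr1:134289989-134292548, plus strand), was found in 37 of 40 muscle-like cells (92.5%), at 2491 ± 738 CPM (SD, n = 4). Tuft-like cells came next at 34.8 ± 12.1 CPM, with no overlap, and Myog had a UMI in 246 of 1280 of them (19.2%). At 5000 UMIs per cell Myog had a UMI in 10.5% of tuft-like cells, against 2.70% of Aire-stage, 2.94% of myeloid-like and 2.44% of thymocyte-like cells. Within the tuft-like class Myog was highest in cluster 9, at 99.8 and 75.1 CPM with PBS and at 53.1 and 90.7 CPM with spermidine.

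In muscle-like cells Myog was at 1794 and 1939 CPM with PBS and at 2937 and 3293 CPM with spermidine. Both spermidine values were higher (log2 fold change 0.72 ± 0.18 SE, adjusted p = 0.584, edgeR). This change ran from 0.63 to 0.77 with each replicate left out in turn. All muscle-like cells with 0 or 1 Myog UMI came from PBS samples, and some of them were rich in Ccl21a, a chemokine of immature mTECs. The part of those cells in the Myog difference was not tested. Over all kept cells Myog went the other way, at 45.3 and 48.2 CPM with PBS and at 33.7 and 39.2 CPM with spermidine (-0.32 ± 0.10 SE, adjusted p = 0.207, edgeR). The share of muscle-like cells, which hold most Myog, was lower in both spermidine samples, and its part in this value was not tested. In tuft-like cells Myog was at 48.3 and 30.5 CPM with PBS and at 20.4 and 40.1 CPM with spermidine, with overlapping groups and a change of -0.44 ± 0.28 (adjusted p = 0.585, edgeR). This change ran from -0.98 to -0.004 with each replicate left out in turn, and 57 of the 344 UMIs in PBS replicate 1 came from 1 cell. All 14 genes of the myogenic list had UMIs in Aire-stage cells and 10 in muscle-like cells. Mymx was at 188 ± 95.9 CPM in muscle-like and 10.5 ± 5.04 in Aire-stage cells, while Pax7, a factor of muscle stem cells, was at 0 and 14.8 ± 9.17 CPM.

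Klhl41, a kelch protein that stabilises the assembling sarcomere (chr2:69670120-69684230, plus strand), was at 271 ± 126 CPM in muscle-like cells and had a UMI in 21 of 40 (52.5%). Ciliated-like cells at 8.99 ± 7.40 CPM and Aire-stage cells at 4.90 ± 3.22 CPM came next and overlapped each other. In muscle-like cells Klhl41 was at 284 and 100.4 CPM with PBS and at 403 and 298 CPM with spermidine, both higher. The log2 fold change was 0.86 ± 0.50 (adjusted p = 0.999, edgeR), or 0.30 to 1.76 with each replicate left out. In Aire-stage cells Klhl41 was at 9.37 and 5.08 CPM with PBS and at 2.92 and 2.23 CPM with spermidine, both lower. The change there was -1.47 ± 0.45 SE (adjusted p = 0.701, edgeR). Klhl40, its close relative, and Smpx, a small muscle protein, had log2 fold changes of -2.02 ± 0.49 and -1.11 ± 0.34 in the same Aire-stage cells (SE; adjusted p = 0.679 and 0.701, edgeR).

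**Figure D3:**
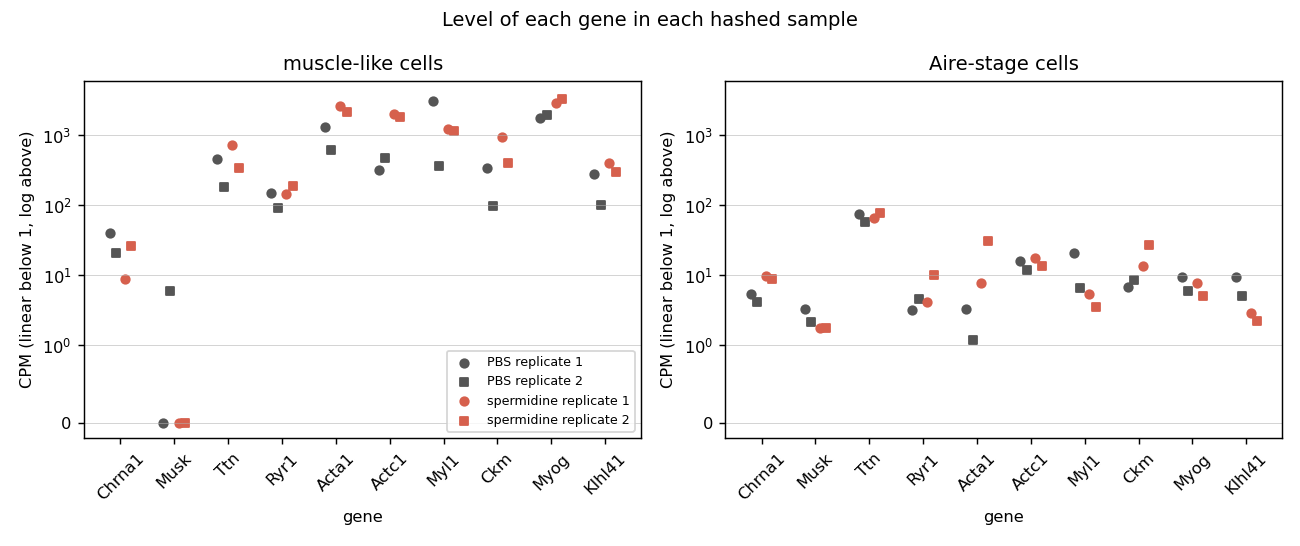
CPM of each gene in each hashed sample in muscle-like cells (left) and Aire-stage cells (right), on an axis that is linear below 1 and logarithmic above. Circles and squares are replicates 1 and 2, grey is PBS and red is spermidine. Chrna1 in Aire-stage cells lay at 5.47 and 4.11 CPM with PBS and above both with spermidine.

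Read across the 10 genes, no member passed an adjusted p of 0.05 in edgeR in any class under the settings used for the values above. Under other settings some did. Where 1 replicate was left out, the lone sample of its group was assumed to vary like the others. Calls in those fits show how the count depends on single samples and are no evidence of a change. With no filter on low counts edgeR called 6 members over all kept cells, 7 outside muscle-like, 3 in muscle-like, 2 in tuft-like, 1 in transit-amplifying-like and 0 in Aire-stage cells. With counts capped at 10 UMIs per cell it called Ttn over all kept cells, outside muscle-like cells and in transit-amplifying-like cells, and Chrna1 in tuft-like cells. Over all kept cells 0 of 22665 genes passed (0%), and 4164 had an unadjusted p under 0.05 (18.4%), among them 5 of the 10 members: Ttn, Actc1, Acta1, Ckm and, lower, Myog. DESeq2 called 845 genes there, with Ttn, Actc1 and Acta1 among them. Without PBS replicate 2, edgeR called 651 genes and without spermidine replicate 1 it called 10.

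In Aire-stage cells 0 of 18519 genes passed (0%) and 6.55% had an unadjusted p under 0.05, with 4 of 10 members, Chrna1, Ckm, Acta1 and, lower, Klhl41. DESeq2 called 82 genes and, of the members, Acta1. In muscle-like cells 8 members could be fitted, and 4 of them, Actc1, Myog, Acta1 and Ckm, had an unadjusted p under 0.05, all higher with spermidine. There 0 of 5258 genes passed (0%), 5.17% had an unadjusted p under 0.05, and DESeq2 called 4 genes with Actc1 among them. Without PBS replicate 1, spermidine replicate 1 or spermidine replicate 2, edgeR called 56, 253 and 204 genes in that class.

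Outside muscle-like cells 0 of 22615 genes passed (0%) and 18.1% had an unadjusted p under 0.05, with 5 of 10 members: Ttn, Ckm, Acta1, Actc1 and, lower, Klhl41. DESeq2 called 828 genes, Ttn and Acta1 among them, and edgeR called 745 without PBS replicate 2 and 10 without spermidine replicate 1. In tuft-like cells 21 of 13832 genes passed (0.152%), 0 of the 5 members fitted, and 2 members, Chrna1 and Myl1, were among the 11.6% with an unadjusted p under 0.05. In the tuft-like fit 65 of the 100 Myl1 UMIs came from 1 cell, and leaving out each replicate in turn gave 203 to 317 called genes, the highest without PBS replicate 1. In transit-amplifying-like cells 0 of 12950 genes passed (0%), 7.37% had an unadjusted p under 0.05, and Ttn was the 1 of 4 fitted members among them. DESeq2 called 29 genes there, with no member, and edgeR called 31 genes without spermidine replicate 1, 34 without spermidine replicate 2 and 2 without each PBS replicate.

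**Figure D4:**
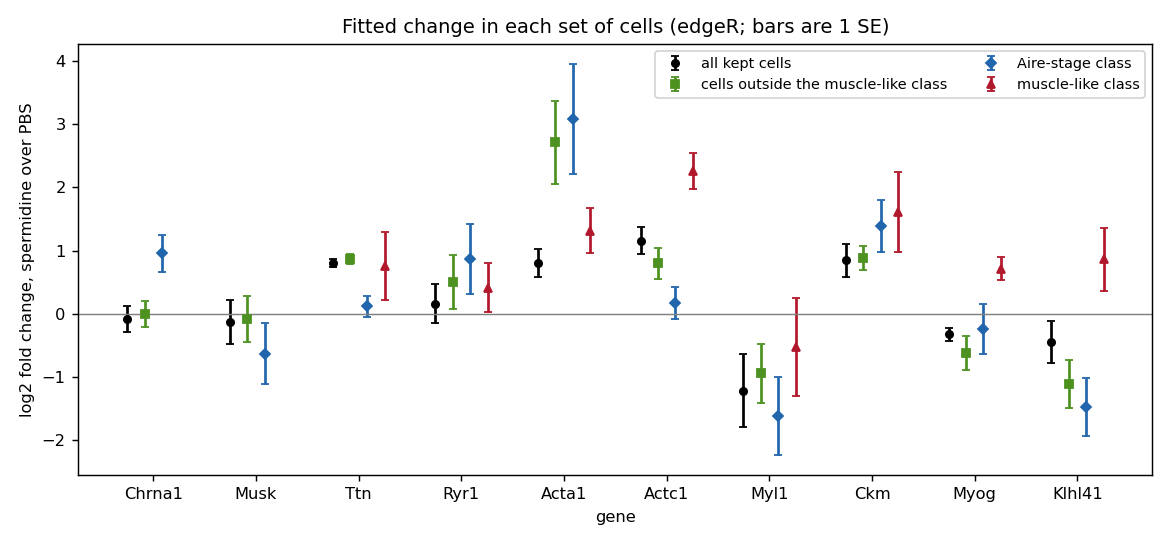
Log2 fold change of spermidine over PBS fitted by edgeR for each gene in 4 sets of cells, with bars of 1 SE. Ttn lay at 0.80 over all kept cells and at 0.12 in Aire-stage cells, and no value passed an adjusted p of 0.05.

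The wider muscle lists were counted in the same fits. In all kept cells 16 of 96 tested muscle genes other than the members (16.7%) had an unadjusted p under 0.05, against 18.4% of all genes, with medians of 0.04 and 0.01 on the log2 scale. The counts by list that follow include the members and are of genes with an unadjusted p under 0.05 (edgeR), none of which passed after adjustment. The sarcomere list had 9 of 41 genes on the higher side, 3 of them members (Ttn, Actc1 and Acta1), and 1 on the lower side, with a median of 0.30. Among these Xirp1, an actin-binding repeat protein, had 2.02 ± 0.43, Tnnt1, slow troponin T, 1.49 ± 0.25 and Myh1, a fast myosin, 1.53 ± 0.34 (log2 fold change ± SE; adjusted p = 0.138, 0.118 and 0.143, edgeR), and Mylpf had -0.54 ± 0.15 (adjusted p = 0.179). In the endplate list of 14 genes there were 3 on the higher and 2 on the lower side: Dok7 (1.75 ± 0.57), Chrne (0.63 ± 0.24) and Ache (0.23 ± 0.09) against Agrn (-0.26 ± 0.08) and Utrn (-0.24 ± 0.08), with a median of 0.02. Within single classes Ache and Utrn had the opposite sign. Ache was at -0.06 in Aire-stage, -0.24 in tuft-like and -0.30 in transit-amplifying-like cells. Utrn was at 0.08, 0.11 and 0.09 in these and at 0.84 in muscle-like cells. Agrn and Chrne kept their sign in the classes where they were fitted. The part of the class shares in these values was not tested. Over all kept cells Jph1 and Srl of 19 coupling genes and Ckm and Eno3 of 12 energy genes were on the higher side, and no gene of either list was on the lower. Of 13 myogenic genes Myog and Myod1 (-3.22 ± 0.46, adjusted p = 0.113, edgeR) were on the lower side and 0 on the higher, while by sign alone 6 were higher and 7 lower. None of 7 assembly genes had such a p, with a median of -0.35. Of 10 neuronal receptor subunits there were 2 on the higher side, Chrna7 (2.97 ± 0.69) and Chrna5 (0.40 ± 0.13).

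In Aire-stage cells 11 of 90 such genes without the members (12.2%) had an unadjusted p under 0.05, 5 higher and 6 lower, against 6.55% of all genes. With members included, the sarcomere list had 6 on the higher side, Acta1 among them, and 2 on the lower of 39, and the assembly list had 3 of 7 on the lower side, Klhl41 among them, with a median of -1.11. In muscle-like cells 5 of 37 (13.5%) did, 4 higher and 1 lower, against 5.17%, with a median of 0.46 against -0.01. Tnnc2, the fast troponin C (5.71 ± 1.31), Tnni2, fast troponin I (1.52 ± 0.43), Mef2c, a partner of myogenin (1.48 ± 0.46), and Utrn (0.84 ± 0.31) were higher and Colq (-1.40 ± 0.52) lower (log2 fold change ± SE; adjusted p of 0.506 or more, edgeR). In tuft-like cells 4 of 34 (11.8%) had an unadjusted p under 0.05, against 11.6%, and Cacna2d1, a calcium channel subunit, rose (1.51 ± 0.15 SE, adjusted p = 0.0102, edgeR). In transit-amplifying-like cells the count was 4 of 44 (9.09%), against 7.37%.

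There were 13 and 13 muscle-like cells with PBS and 8 and 6 with spermidine, 0.968% and 1.30% against 0.587% and 0.601% of cells. The means were 1.13% ± 0.233 and 0.594% ± 0.010 (SD, n = 2), a difference of -0.54 percentage points, with p = 0.333 in a 2-sided exact permutation test, the smallest p that 2 against 2 samples allow. With 6 hashtags the difference was -0.41 points. Sorting and pooling of the cells can also set such shares. Muscle-like cells with 5 or more members numbered 4 of 1343 and 6 of 1002 cells with PBS. With spermidine they numbered 6 of 1362 and 3 of 998 cells, and these shares overlapped between the groups. Within the class they were 4 of 13 and 6 of 13 cells with PBS. With spermidine they were 6 of 8 and 3 of 6, a larger part in both samples. Cells of the class with 0 or 1 Myog UMI, all from PBS samples, are counted in the PBS shares. The part of this mix in the muscle-like share and in the levels of the class was not tested.

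In single muscle-like cells several of the genes were seen together, though not every pair to the same degree. Myog was found in 37, Myl1 in 24, Ryr1 in 22, Klhl41 in 21, Ttn in 19, Ckm in 17, Actc1 and Chrna1 in 13 each, Acta1 in 12 and Musk in 1 of the 40 cells. All 13 cells with Chrna1 had Myog, 11 had Myl1, 10 had Ryr1 and 10 had Klhl41. All 12 cells with Acta1 also had Ryr1, Myl1, Klhl41 and Myog. Actc1 and Acta1 were found together in 8 cells, with 5 holding Actc1 alone and 4 Acta1 alone. Ttn and Myl1 were found together in 12 cells, while 7 held Ttn without Myl1 and 12 held Myl1 without Ttn. Depth ran from 7674 to 49206 UMIs per cell, which also affects how often genes are seen together. Whether pairs met more often than their single counts give was not tested.

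The 40 cells ranged from 9 of the 10 genes to none. The median cell had 4 of the 10 genes and the richest had 9, and 19 of 40 cells had 5 or more (4 and 6 with PBS, 6 and 3 with spermidine). Thinned to 5000 UMIs per cell the median was 3 and 13 cells had 5 or more. By contrast 0 of 1281 Aire-stage cells had 5 or more, which allows a share of up to 0.234%, and the richest had 4. In the remaining classes 1 of 128 thymocyte-like cells had 5, and no other cell had 5 or more. There were 6 muscle-like cells with Myog and no other member and 3 with no Myog, of which 2 had Myl1 alone and 1 had no member UMI. All cells with 0 or 1 Myog UMI were from PBS samples. In 6 cells there were 10 or more UMIs of Ccl21a, a chemokine of immature mTECs, and 1 of those had 5 or more members. Among these 6, only a cell of spermidine replicate 2, with 10 Ccl21a UMIs, was not from a PBS sample. An Aire UMI was seen in 7 of the 40 cells. The 5 richest cells, 3 of them from PBS samples, held 56.7% of the 8013 member UMIs of the class, so its levels rest on few cells. With the 10 genes kept in the clustering the muscle-like cluster had 48 cells, 95.8% of them from the class used here.

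**Figure D5:**
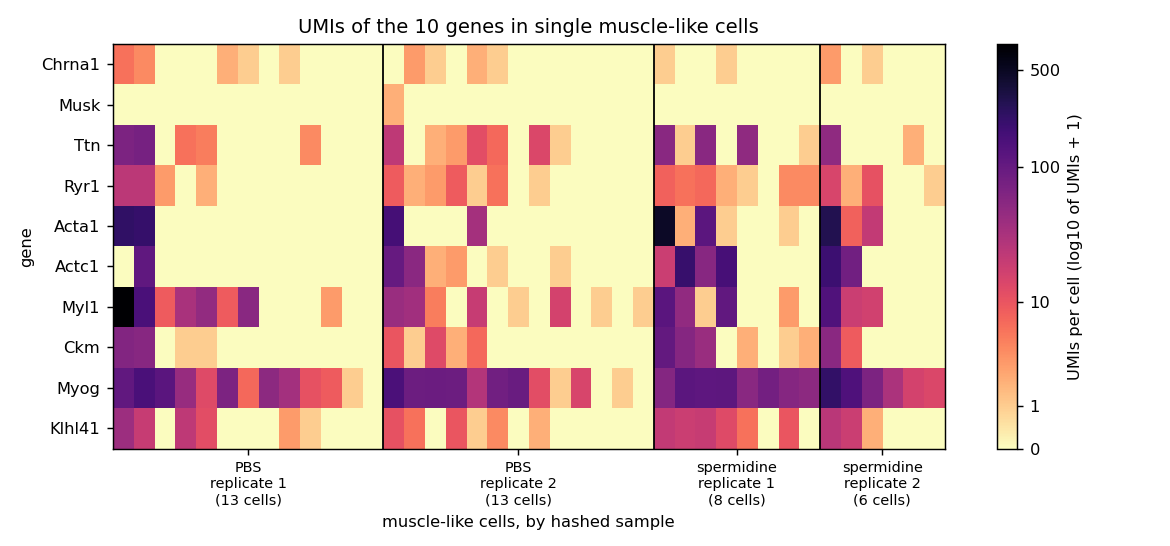
UMIs of each gene (rows) in each of the 40 muscle-like cells (columns, ordered by their sum within each hashed sample), on a log10(UMIs + 1) colour scale. Myog was present in 37 cells, while Acta1 was present in 12 and Musk in 1.

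In Aire-stage cells the genes were scattered instead. A UMI of at least 1 of the 10 genes was seen in 680 of 1281 cells (53.1%), and at 5000 UMIs per cell in 353 of 1149 (30.7%), with 4.00% of cells holding 2 or more and 0.435% holding 3 or more. The thinned shares were 44.1% of transit-amplifying-like, 20.6% of tuft-like and 90% of muscle-like cells, against 6.10% of thymocyte-like and 10.3% of myeloid-like cells, whose median depths were 6347.0 and 17196.0 UMIs. Ttn alone was seen in 40.2% of the thinned transit-amplifying-like, 18.2% of the Aire-stage and 5.49% of the tuft-like cells. The shares with any member therefore do not rank the classes for the 10 genes as a set. Thinning left out 132 of 1281 Aire-stage, 51 of 511 transit-amplifying-like, 114 of 1280 tuft-like, 46 of 128 thymocyte-like and 13 of 81 myeloid-like cells.

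Aire-stage cells in which Aire itself was seen held these genes more often. At 5000 UMIs per cell 293 of 849 cells with an Aire UMI (34.5%) had a UMI of at least 1 of the 10 genes, and 60 of 300 cells without (20%). The order was the same in each sample: 34.2% and 17.8% in PBS replicate 1, 33.3% and 7.46% in PBS replicate 2, 33.1% and 26.9% in spermidine replicate 1 and 37.7% and 25.4% in spermidine replicate 2. These are cells of 4 samples and were not tested.

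By treatment, the thinned share of Aire-stage cells with a member UMI was 28.9% and 25.8% with PBS and 31.7% and 34.8% with spermidine. The means were 27.3% ± 2.21 and 33.2% ± 2.15 (SD, n = 2), 5.92 percentage points apart, and both spermidine values were higher, with p = 0.333 in a 2-sided exact permutation test. Without thinning the means were 49.8% and 54.7% (exact p = 0.667), and at 2000 UMIs per cell 15.3% and 16.6% (exact p = 0.333). At 5000 UMIs Ttn alone was seen in 15.6% and 15.3% of Aire-stage cells with PBS and in 20.4% and 19.4% with spermidine. Chrna1 was seen in 1.78% and 1.75% with PBS and in 2.64% and 2.51% with spermidine. Cluster 3 was a larger part of the Aire-stage cells with spermidine, as given above, and held these genes more often (43.0% of its thinned cells, against 24.9% in cluster 4 and 16% in cluster 6). Within cluster 3 the shares with any of the 10 members were 46.3% and 46.8% with PBS and 37.7% and 47.8% with spermidine, which overlapped, and those with Ttn were 28.8% and 31.2% with PBS and 23.2% and 31.3% with spermidine. Within cluster 4 the shares with any of the 10 members were 23.9% and 16% with PBS and 32.1% and 25.7% with spermidine, and within cluster 6 they were 11.3% and 13% with PBS and 14.7% and 25.5% with spermidine.

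Counts of some members are uncertain where another gene lies across them, since the strand used in counting is not given in the sources used here. Gm13938 lies antisense within Ttn, Gm38979 and Gm26604 within Ryr1 and A930016O22Rik within Ckm, while Gm20388 runs across Acta1 and A530058N18Rik across Actc1 on the opposite strand. Acta1 and Actc1 are close relatives, and how reads that match both were handled is not given in the sources used here.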

How the data were processed

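Single-cell RNA-seq was run on 1 pool of hashed thymic epithelial cells. The authors deposited a matrix of raw UMI counts for genes and hashtags, which per the file headers came from Cell Ranger 7.1.0; bcl2fastq, Seurat and mm10 are named in the submitters' processing notes. Coordinates were taken from GENCODE M21 (GRCm38). How reads on the opposite strand or matching several genes were counted is not given in the sources used here.

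Cells with at least 1000 UMIs, 500 genes and under 15% mitochondrial UMIs were kept. They were assigned to samples with HTODemux (Seurat 5.3.0, quantile 0.99), which called 1001 hashtag doublets and 2828 negatives; both were left out of the comparisons, and no other doublet caller was run. Cells were clustered in scanpy 1.11.5 (2000 variable genes without the 10 members, 30 principal components, 15 neighbours, Leiden resolution 1), and clusters were named from listed markers, so the class names are rebuilt and not the authors' own. CPM was computed from the summed deposited counts of each class and sample.

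Counts summed per sample were tested with edgeR 4.0.16 (R 4.3.3, quasi-likelihood test, TMM, filterByExpr with a minimum count of 10 and total of 15, Benjamini-Hochberg adjustment over all genes tested, threshold 0.05), on 4 samples. The test was also run on simulated counts with the same spread for every gene. That setting is unlike sums in which single cells hold most UMIs, so it gives no assurance for them. Shares of cells were compared by a 2-sided exact permutation test, with cells thinned to 5000 UMIs where depth matters. Alternatives were DESeq2 1.42.0, RLE factors, no filter, the replicate number as a block, each replicate left out, counts capped at 10 UMIs per cell, 6 hashtags, a mitochondrial limit of 10%, other clusterings and other thinning.

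The members, gene lists and tests were chosen with earlier results of these data known. Named are the 10 members, the endplate list, listed genes with an unadjusted p under 0.05 and the 5 genes most like Chrna1; exceptions are stated. Counting intervals and floors cover counting error only.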

Additional observations from a re-analysis of the deposited data

Results flagged for a closer look

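Chrna1 was higher with spermidine in both Aire-stage samples and lower in both tuft-like samples, with log2 fold changes of 0.95 and -1.36. The difference between these changes was tested and did not pass (-2.33, adjusted p = 0.379, edgeR).

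Myog was higher with spermidine in both muscle-like samples (log2 fold change 0.72) and lower in both transit-amplifying-like samples (-0.49), and the difference was not tested. Its CPM in transit-amplifying-like cells was 5.66 and 7.85 with PBS and 4.27 and 5.43 with spermidine.

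Klhl41 was higher with spermidine in both muscle-like samples (log2 fold change 0.86) and lower in both Aire-stage samples (-1.47), and this difference was not tested.

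Muscle-like cells were also present in cells the comparisons do not use. Of 2317 cells that carried 1 of the 2 hashtags with no sample in the labels, 19 were muscle-like (0.820%). They have no group in the labels and enter no comparison.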

How the results depend on the processing

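The number of genes past the threshold depended on the settings, and the cause was not tested. DESeq2 called 845 genes over all kept cells, 82 in Aire-stage, 4 in muscle-like, 828 outside muscle-like, 36 in tuft-like and 29 in transit-amplifying-like cells. With no filter on low counts edgeR called 3186, 6, 128, 3216, 539 and 637 in the same order. With counts capped at 10 UMIs per cell it called 1083 over all kept cells, 1013 outside muscle-like, 107 in tuft-like and 25 in transit-amplifying-like cells. With 6 hashtags it called 4 genes in muscle-like and 10 in transit-amplifying-like cells, and Leiden resolution 2 gave 2 in the latter. Leaving out each replicate in turn gave 0 to 651 over all kept cells, 0 to 253 in muscle-like, 0 to 745 outside muscle-like, 203 to 317 in tuft-like and 2 to 34 in transit-amplifying-like cells. In these fits the lone sample of a group is assumed to vary like the others. The alternatives for tuft-like and transit-amplifying-like cells were chosen after seeing the data.

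With the replicate block edgeR called 12 genes in muscle-like cells, among them Actc1 (2.28, adjusted p = 0.0226), and 78 in tuft-like cells. The numbers share no stated source, and same-numbered samples deviated with correlations of -0.05 to 0.05, so they were not taken as pairs. Under the block the change of Myl1 in muscle-like cells was 0.13 and that of Chrna1 outside muscle-like cells -0.000370.

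Log2 fold changes that turned were mostly small. With 6 hashtags Acta1 was at -0.53 in Aire-stage cells and -0.037 outside muscle-like cells, Chrna1 at 0.051 over all kept cells, Myog at 0.10 in Aire-stage and 0.14 in transit-amplifying-like cells and Ryr1 at -0.006013 outside muscle-like cells. Chrna1 outside muscle-like cells, at 0.00107 as reported, was -0.011 in DESeq2, -0.001299 with RLE factors, -0.006913 with no filter and -0.086 with capped counts. Ttn in muscle-like cells was -0.011 with capped counts.

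Leaving out each replicate gave ranges that spanned 0 for Actc1 (-0.024 to 0.38), Myog (-0.58 to 0.13) and Ttn (-0.055 to 0.32) in Aire-stage cells and for Chrna1 (-0.22 to 0.050), Musk (-0.31 to 0.062) and Ryr1 (-0.29 to 0.51) over all kept cells. Outside muscle-like cells they did for Chrna1 (-0.13 to 0.11), Musk (-0.32 to 0.19) and Ryr1 (-0.063 to 0.92), and in muscle-like cells for Myl1 (-1.38 to 1.67). In tuft-like cells they did for Ryr1 (-0.32 to 0.067) and Ttn (-0.21 to 0.014), and in transit-amplifying-like cells for Ckm (-3.07 to 0.29) and Myl1 (-0.97 to 0.82). Both shares of cells kept their direction under each alternative run. Depth limits the muscle-like class most: 40 cells in all, 6 of them in spermidine replicate 2.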
